A study of Mus musculus with 72 samples.

Results

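Rpl29, Cyb5r4, Me1 and Oaz2 are protein-coding genes of mouse chromosome 9, and each has a near-identical processed pseudogene on another chromosome whose read counts differed with the Gnb5 genotype. The set examined here holds these 4 parents and 5 pseudogenes: Gm5561 and Gm8210 of Rpl29, Gm11868 of Cyb5r4, Gm7049 of Me1 and Oaz2-ps of Oaz2. These 9 of the 53715 genes in the files were chosen by their differences in counts between Gnb5-/- and Gnb5+/+ mice in the same libraries, so the genotype differences below are descriptions without a test. Where genotypes are said not to overlap, this too is a description, and the share of all genes without overlap is not given. Differences between tissues played no part in the choice and are tested in Gnb5+/+ mice. Those within Gnb5-/- mice, where the copies are high, are given as descriptions. The annotation of GRCm38 gave the labels used here, protein coding for the 4 parents and processed pseudogene for the 5 copies.

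The 18 mice, all male and 18 weeks old, were 6 each of Gnb5-/-, Gnb5+/- and Gnb5+/+, of a line recovered from cryopreserved sperm, and no treatment is given in the labels. The mutant allele lacks exon 3 and was made on a C57BL/6J background. Atria and ventricles, each left and right together, were taken from all 3 genotypes, and the whole cerebellum, both hippocampi and the whole cerebral cortex from Gnb5-/- and Gnb5+/+ mice, which makes 12 groups of 6 libraries and 72 libraries in all. The labels number the mice, so a mouse can be followed through its tissues.

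A processed pseudogene arises when a messenger RNA is copied back into DNA and inserted elsewhere in the genome, and it carries no introns. Most are not known to make protein, and many are not transcribed. Since copy and parent are almost the same, a short read from either is placed by the few bases at which they differ, and a read that fits both equally is not counted when only uniquely aligned reads are kept, as here.

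Each library held between 29204390 and 48807435 gene counts (median 38864900). Gnb5, the gene of the G protein subunit that pairs with the R7 family of RGS proteins, went with its label in every group: its mean level in CPM, which scales counts to library size with TMM factors, was 1.84 (mutant) against 29.7 (wild type) in atria, 0.934 against 18.3 in ventricles, 20.7 against 148 in cerebellum, 12.8 against 99.5 in hippocampus and 15.96 against 136 in cortex. In Gnb5+/- hearts it was 15.5 in atria and 9.52 in ventricles. Markers of the labelled tissues were present. The hippocampal ones (Prox1, Zbtb20 and Ociad2) did not set their tissue apart, with a median sum of 397 CPM in Gnb5+/+ hippocampus and 589 in ventricles. Of the libraries, 2 stood apart from their groups by correlation. The cerebellar library of Gnb5-/- mouse 12 correlated with its group at a mean r of 0.912 over log2 CPM, and the cortical one of Gnb5-/- mouse 14 at 0.879, where the other 70 libraries lay between 0.960 and 0.993. In the first, the summed CPM of 7 other ribosomal protein genes was 617 against 186 to 218 in its group, and that of the choroid plexus markers Ttr, Kl and Folr1 613 against 1.504 to 5.40. In the second, the ribosomal sum was 1295 against 241 to 438. The choroid plexus sum also varied elsewhere, up to 1152 CPM in a Gnb5+/+ hippocampal library. The part of the 2 libraries that stood apart was not tested. For their tissues the parents and the sums of Cyb5r4, Me1 and Oaz2 are also given without them. In the cortex of Gnb5-/- mouse 3, 8.32% of uniquely aligned reads fell in no gene. The value was 6.86% in mouse 14 and 13.4% to 14.9% in mice 1, 5, 10 and 12. Cortical values without mouse 14 still hold the library of mouse 3. The ventricles of Gnb5+/- mouse 4 had 2.85% of such reads and an r of 0.965, where the next lowest of its group had 0.981. In bulk tissue, fewer cells of a type and less RNA per cell cannot be told apart.

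The bases that separate each copy from its parent come first, since read placement turns on them. Each stretch of 60 bases was taken from GENCODE M21 transcripts of GRCm38, inside 1 coding exon of the parent, where the copies differ most, and capitals mark the bases that are not the same throughout a set. Rpl29 encodes eL29, a protein of the large ribosomal subunit, and lies at chr9:106429454-106431568, on the plus strand, 31.1 Mb from Gnb5. The stretch is in its exon 4 of 4, coding bases 364 to 423, at chr9:106431330-106431389. Gm5561 (chr1:179520378-179520857, minus strand) carries it at chr1:179520435-179520494 with 2 differences, and Gm8210 (chr1:43189156-43189638, plus strand) at chr1:43189519-43189578 with 1.
Rpl29: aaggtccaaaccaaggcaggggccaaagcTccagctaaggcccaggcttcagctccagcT
Gm5561: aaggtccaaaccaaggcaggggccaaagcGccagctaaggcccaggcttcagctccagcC
Gm8210: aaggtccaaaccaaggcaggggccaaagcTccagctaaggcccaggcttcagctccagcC
Over its whole length, Gm5561 matched Rpl29 at 98.33% of 480 bases, with 8 differences, and Gm8210 at 99.38% of 483 bases, with 3.

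Cyb5r4 encodes a soluble flavohaemoprotein that joins a cytochrome b5 domain to a cytochrome b5 reductase domain, and it lies at chr9:87022014-87077774, on the plus strand, 11.7 Mb from Gnb5. Its stretch is in exon 8 of 16, coding bases 601 to 660, at chr9:87042795-87042854. Gm11868 (chr4:18844202-18845679, minus strand) carries it at chr4:18845129-18845188 with 3 differences.
Cyb5r4: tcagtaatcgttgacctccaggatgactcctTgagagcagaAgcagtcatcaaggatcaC
Gm11868: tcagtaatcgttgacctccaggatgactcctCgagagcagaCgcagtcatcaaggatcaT
Gm11868 matched 93.12% of the Cyb5r4 coding sequence, with 23 mismatches in 1478 aligned columns, an identity of 98.44%.

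Me1 encodes cytosolic malic enzyme, which turns malate into pyruvate and yields NADPH, and it lies at chr9:86581371-86695953, on the minus strand, 11.2 Mb from Gnb5. Its stretch is in exon 5 of 14, coding bases 467 to 526, at chr9:86650942-86651001. Gm7049 (chr13:62813076-62814787, plus strand) carries it at chr13:62813541-62813600 with 3 differences.
Me1: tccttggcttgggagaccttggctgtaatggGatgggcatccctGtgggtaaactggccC
Gm7049: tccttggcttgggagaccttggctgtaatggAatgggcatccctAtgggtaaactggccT
Gm7049 matched 99.65% of the Me1 coding sequence, with 21 mismatches in 1710 columns, an identity of 98.77%.

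Oaz2 encodes ornithine decarboxylase antizyme 2, which binds ornithine decarboxylase, sends it to the proteasome and limits polyamine uptake, and whose own synthesis needs a ribosomal frameshift that polyamines favour. It lies at chr9:65668001-65690300, on the plus strand, 9.62 Mb from Gnb5. Its stretch is in exon 4 of 6, coding bases 197 to 256, at chr9:65687820-65687879. Oaz2-ps (chr3:135525964-135526532, minus strand) carries it at chr3:135526272-135526331, in exon 2 of 2, with 3 differences.
Oaz2: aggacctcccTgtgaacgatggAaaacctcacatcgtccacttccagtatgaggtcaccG
Oaz2-ps: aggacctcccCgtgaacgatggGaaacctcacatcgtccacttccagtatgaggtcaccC
Oaz2-ps matched 95.21% of the Oaz2 coding sequence, with 9 mismatches in 537 columns, an identity of 98.32%.

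Every stretch (window) as long as 1 sequencing read was taken from each copy and compared with its parent. Of 356 such windows in Gm5561, 0 were identical to Rpl29. In Gm8210, 103 of 359 (28.7%) were identical to Rpl29. Gm11868 had 60 of 1354 (4.43%), Oaz2-ps 19 of 413 (4.60%) and Gm7049 302 of 1588 (19.0%). The median window held 2 differences in Gm5561, Gm11868, Gm7049 and Oaz2-ps, and 1 in Gm8210.

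Other annotated genes shared windows as well. All 359 windows of Gm8210 were found in other genes, all of them in Gm13841, a processed pseudogene on chromosome 5. Gm7049 shared 820 of 1588 windows (51.6%) with other genes, and Gm5561 35 of 356 (9.83%). For Gm11868 and Oaz2-ps, the windows found elsewhere were those of their own parent. Of the parents, Rpl29 had 264 of 1401 windows (18.8%) in 14 other genes, Me1 405 of 3713 (10.9%), Cyb5r4 60 of 6765 (0.887%) and Oaz2 19 of 3353 (0.567%). A read identical to a shared window fits more than 1 gene equally and is not counted. This holds for every full-length read identical to Gm8210 that lies inside it. The source of the reads that were counted is therefore uncertain for Gm8210, Gm7049 and Rpl29. For the other members it was not tested.

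**Figure D1:**
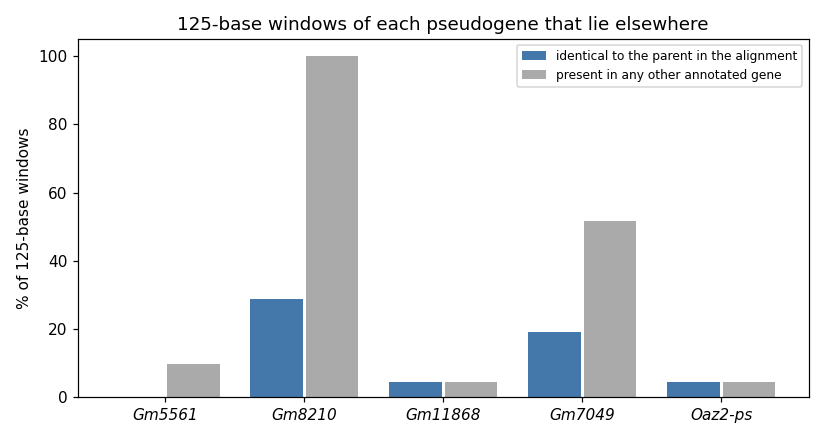
Share of read-length windows of each pseudogene, in percent, that are identical to the parent at the aligned position (blue) or present in any other annotated gene (grey). Gm8210 had 100% of its windows in other genes and 28.7% identical to Rpl29, whereas Gm11868 and Oaz2-ps had 4.43% and 4.60%.

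In the Rpl29 trio, counts of the parent and of Gm5561 were lower in Gnb5-/- than in Gnb5+/+ mice of every tissue, and those of Gm8210 were higher. Gnb5-/- atria had 18, 39.5 and 48 Rpl29 counts as the lowest, median and highest of 6 mice, and Gnb5+/+ atria 193, 311 and 343. In ventricles the values were 22, 39 and 47 against 136, 239.5 and 333. No Gnb5-/- heart library reached a Gnb5+/+ one.

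In the brain, Rpl29 counts ran from 28 to 62 in Gnb5-/- and from 175 to 341 in Gnb5+/+ cerebellum, from 46 to 65 and 230 to 359 in hippocampus, and from 30 to 85 and 272 to 491 in cortex. Again the genotypes did not overlap. The mean Rpl29 level was 0.883 ± 0.319 CPM (SD, n = 6) against 8.62 ± 2.05 in atria, 1.03 ± 0.305 against 7.17 ± 1.38 in ventricles, 1.09 ± 0.346 against 6.46 ± 1.14 in cerebellum, 1.26 ± 0.157 against 7.47 ± 1.197 in hippocampus and 1.48 ± 0.301 against 9.76 ± 1.48 in cortex. The log2 fold change of Rpl29, Gnb5-/- against Gnb5+/+, was -3.29 (SE 0.248) in atria, -2.80 (SE 0.276) in ventricles, -2.56 (SE 0.212) in cerebellum, -2.57 (SE 0.131) in hippocampus and -2.71 (SE 0.162) in cortex. Without the library of mouse 12 the cerebellar value was -2.69, and without that of mouse 14 the cortical value was -2.64.

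Gnb5+/- hearts lay between the other genotypes in mean Rpl29 level. Atria had 155, 221 and 441 counts (6.38 ± 1.63 CPM, n = 6) and ventricles 100, 120.5 and 320 (5.37 ± 2.84 CPM), log2 fold changes against Gnb5+/+ of -0.43 (SE 0.216) and -0.42 (SE 0.246). Their range overlapped that of Gnb5+/+ mice and stayed above that of Gnb5-/- mice. The highest Gnb5+/- values were 9.45 CPM in the atria of mouse 13 and 10.9 CPM in the ventricles of mouse 4.

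Gm5561 was nearly without counts in Gnb5-/- mice, with 0 to 2 in each of the 30 libraries. Gnb5+/+ mice had 39, 55 and 69 counts in atria, 28, 49 and 77 in ventricles, and 6 to 36 in the 3 brain regions, and Gnb5+/- mice 19 to 55 in atria and 15 to 66 in ventricles. So each Gnb5+/+ and Gnb5+/- library had more Gm5561 counts than any Gnb5-/- one. Since counts of up to 3 were treated as not told apart from 0, the difference is given in CPM: -1.57 (SE 0.148) in atria, -1.57 (SE 0.325) in ventricles, -0.342 (SE 0.0921) in cerebellum, -0.386 (SE 0.0714) in hippocampus and -0.426 (SE 0.1001) in cortex.

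Gm8210 showed the reverse. Gnb5-/- mice had 24, 42.5 and 73 counts in atria, 30, 45 and 102 in ventricles, 9, 22 and 35 in cerebellum, 16, 26.5 and 33 in hippocampus, and 19, 31 and 53 in cortex. In Gnb5+/+ mice all libraries had 0 or 1 count except the 5 of mouse 15, with 12 in atria, 29 in ventricles, 8 in cerebellum, 14 in hippocampus and 35 in cortex. Only through mouse 15 did the genotypes overlap, in ventricles and cortex. The mean Gm8210 level in Gnb5-/- mice was 1.07 ± 0.406 CPM in atria, 1.36 ± 0.452 in ventricles, 0.531 ± 0.184 in cerebellum, 0.583 ± 0.134 in hippocampus and 0.901 ± 0.337 in cortex, and the log2 fold changes with mouse 15 included were 4.08 (SE 0.843), 3.14 (SE 0.882), 3.94 (SE 0.760), 3.23 (SE 0.666) and 2.56 (SE 0.971) in that order. These values rest on mouse 15, without which no Gnb5+/+ library held more than 1 count and no fold can be given. Without it the difference in level was 1.06 CPM (SE 0.166) in atria, 1.36 (SE 0.185) in ventricles, 0.531 (SE 0.0751) in cerebellum, 0.579 (SE 0.0549) in hippocampus and 0.896 (SE 0.138) in cortex, and with it 1.01, 1.19, 0.497, 0.528 and 0.744.

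Among Gnb5+/- hearts, Gm8210 counts split by mouse. Mouse 4 had 1 in atria and 0 in ventricles and mouse 13 had 0 in both, while the other 4 mice had 10 to 24 in atria and 6 to 24 in ventricles. The 2 mice with the fewest Gm8210 counts also had the most Rpl29 counts of their group in either tissue, 262 and 320 in mouse 4 and 441 and 170 in mouse 13. The trio's total in Gnb5+/- mice ran from 217 to 478 in atria, and its range was 133 to 386 in ventricles.

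Gm8210 made up 53.4% ± 18.3 (SD, n = 6) of the trio's counts in Gnb5-/- atria and 56.0% ± 11.9 in ventricles, and 32.4% ± 8.35 in cerebellum, 31.4% ± 3.83 in hippocampus and 37.2% ± 9.78 in cortex. In Gnb5+/+ mice other than mouse 15 its share was 0.0521% or less on average in every tissue. Summing the trio left the genotypes apart: 70, 74 and 98 counts in Gnb5-/- against 244, 366 and 412 in Gnb5+/+ atria. For the Rpl29 sum, the log2 fold change was -2.38 (SE 0.163) in atria, -1.88 (SE 0.220) in ventricles, -2.06 (SE 0.191) in cerebellum, -2.10 (SE 0.124) in hippocampus and -2.11 (SE 0.143) in cortex, against -2.56 to -3.29 for Rpl29 alone.

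In the Cyb5r4 pair the copy had the most counts of all 5 pseudogenes. Gnb5-/- mice had 293, 442 and 607 Gm11868 counts in atria, 181, 252.5 and 301 in ventricles, 535, 600.5 and 761 in cerebellum, 349, 386 and 489 in hippocampus, and 122, 359 and 548 in cortex. The 25 Gnb5+/+ libraries of the 5 mice other than mouse 15 had between 0 and 6. Those of mouse 15 had 206 in atria, 121 in ventricles, 237 in cerebellum, 180 in hippocampus and 131 in cortex. With or without mouse 15, the genotypes did not overlap in CPM in any tissue.

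The mean Gm11868 level was 10.8 ± 1.33 CPM in Gnb5-/- and 0.872 ± 1.97 in Gnb5+/+ atria (n = 6 each), and 0.0686 ± 0.0509 in Gnb5+/+ atria without mouse 15. In ventricles it was 6.77 ± 0.857 against 0.736 ± 1.67, in cerebellum 15.1 ± 1.12 against 1.04 ± 2.41, in hippocampus 9.28 ± 0.663 against 0.697 ± 1.61, and in cortex 8.69 ± 2.66 against 0.596 ± 1.39. These Gnb5+/+ SDs exceed their means because they hold 1 high library among 5 near 0. The log2 fold change of Gm11868 with mouse 15 was 3.52 (SE 0.718) in atria, 3.27 (SE 0.711) in ventricles, 3.88 (SE 1.04) in cerebellum, 3.67 (SE 0.824) in hippocampus and 3.89 (SE 1.07) in cortex. Gnb5+/- mice had 162, 196 and 310 counts in atria and 87, 104.5 and 120 in ventricles, or 5.38 ± 0.837 and 3.50 ± 0.391 CPM, between the means of the other genotypes.

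Cyb5r4 itself was lower in Gnb5-/- mice, by a smaller factor. Atria had 1226, 1448 and 1894 counts in Gnb5-/- and 1573, 1800 and 2081 in Gnb5+/+ mice, which is 36.4 ± 1.55 against 52.3 ± 6.11 CPM, without overlap in CPM. In ventricles it was 24.2 ± 2.14 against 35.7 ± 8.71 CPM, also without overlap. Brain values overlapped, in hippocampus through mouse 15 alone: 46.3 ± 8.18 against 58.4 ± 7.76 CPM in cerebellum, 27.2 ± 2.38 against 40.03 ± 5.82 in hippocampus, and 31.9 ± 8.30 against 39.7 ± 4.72 in cortex.

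Cyb5r4 had a log2 fold change of -0.52 (SE 0.0782) in atria, -0.56 (SE 0.121) in ventricles, -0.33 (SE 0.122) in cerebellum, -0.56 (SE 0.0941) in hippocampus and -0.32 (SE 0.155) in cortex. Without mouse 12 the cerebellar value was -0.44, and without mouse 14 the cortical value was -0.45. Against Gnb5+/+, Gnb5+/- mice had Cyb5r4 values of -0.26 (SE 0.0780) in atria and -0.10 (SE 0.120) in ventricles.

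Gm11868 held 22.8% ± 2.28 of the pair's counts in Gnb5-/- atria, 21.9% ± 2.28 in ventricles, 24.9% ± 3.24 in cerebellum, 25.5% ± 1.14 in hippocampus and 22.0% ± 6.58 in cortex. The Gnb5-/- cortex of mouse 14 was the lowest, at 8.82%, and without it the cortical mean was 24.7% ± 1.27. Gnb5+/- mice had 10.99% ± 1.89 in atria and 9.49% ± 0.390 in ventricles. Gnb5+/+ mice without mouse 15 had mean shares of 0.0696% to 0.143%. In every tissue with 3 genotypes, the shares of Gnb5+/- mice lay above those of these Gnb5+/+ mice and below those of Gnb5-/- mice.

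Added together, Cyb5r4 and Gm11868 differed less between genotypes than Cyb5r4 alone. The pair had 1519, 1890 and 2430 counts in Gnb5-/- and 1574, 1838 and 2087 in Gnb5+/+ atria, that is 47.1 ± 2.17 against 53.2 ± 4.59 CPM. In cerebellum it had 61.4 ± 8.09 against 59.4 ± 5.58 CPM, in cortex 40.6 ± 7.79 against 40.3 ± 3.35. The log2 fold change of the Cyb5r4 sum was -0.17 (SE 0.0678) in atria, -0.23 (SE 0.116) in ventricles, 0.05 (SE 0.0936) in cerebellum, -0.16 (SE 0.0729) in hippocampus and 0.01 (SE 0.121) in cortex. The 2 positive values turned slightly negative without mouse 12 (-0.026) or mouse 14 (-0.064), and without mouse 15 (-0.0010 and -0.038). In the other tissues the sum without mouse 15 lay further below 0. It was -0.21 (SE 0.0677) in atria, -0.24 (SE 0.124) in ventricles and -0.22 (SE 0.0563) in hippocampus.

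Levels of different genes can be compared only per length. Per kb of annotated exon, with factors over all 72 libraries, Gm11868 had 8.18 ± 1.02 CPM per kb in Gnb5-/- atria, where Cyb5r4 had 6.07 ± 0.212. In Gnb5-/- cerebellum the values were 7.20 ± 0.577 for Gm11868 and 4.83 ± 0.809 for Cyb5r4. In Gnb5+/+ atria Cyb5r4 had 8.72 ± 0.994. The exons of Cyb5r4 span 6736 bases and those of Gm11868 1478, of which nearly all align to coding sequence, whereas the length of the parent includes its untranslated parts.

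**Figure D2:**
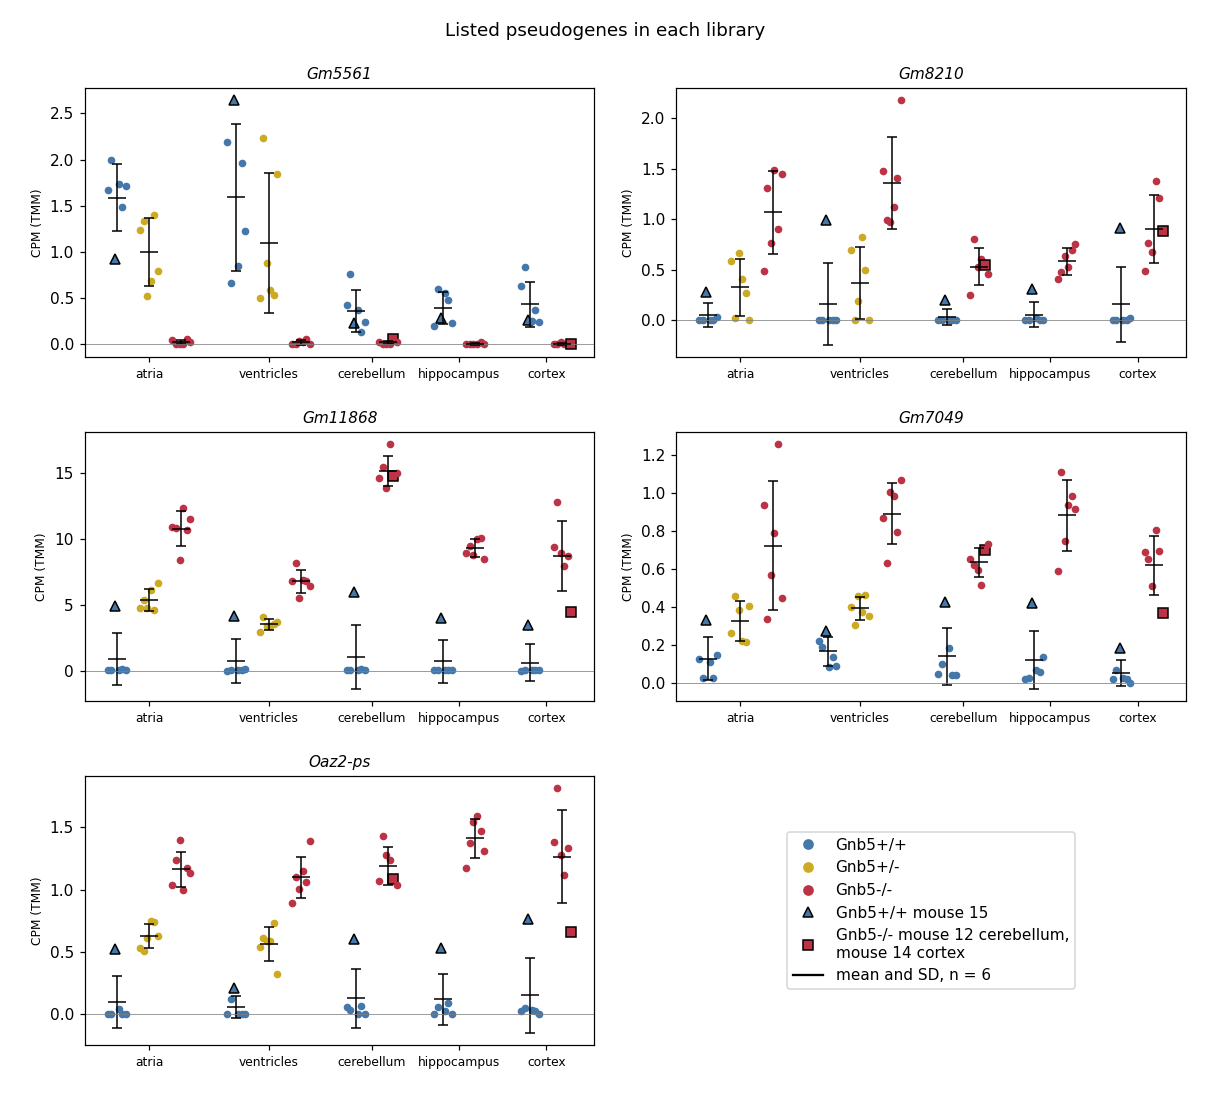
Normalised counts (CPM, TMM factors within a tissue) of the 5 pseudogenes in each of the 72 libraries, by tissue and genotype, with the mean and SD of 6 mice as lines. Gm5561 was near 0 in Gnb5-/- mice, and the other 4 pseudogenes were near 0 in Gnb5+/+ mice except mouse 15, drawn as triangles (Gm11868 3.43 to 5.96 CPM).

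In the Me1 pair, the parent had about the same level in both genotypes of the heart and a higher one in Gnb5-/- brains. Me1 counts were 2629, 3453.5 and 5201 in Gnb5-/- and 2671, 2994 and 3277 in Gnb5+/+ atria, or 90.7 ± 31.8 against 88.3 ± 16.2 CPM. In ventricles the level was 109 ± 10.3 against 117 ± 7.88 CPM. Heart groups overlapped. The highest atrial value, 152 CPM in Gnb5-/- mouse 12, came with the highest atrial sum of the adipocyte markers Adipoq, Plin1, Fabp4, Cidec, Cfd, Retn and Lep, 626 CPM against 137 to 342 in the other 17 atria, and their part in it was not tested.

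In the brain, Me1 was 77.4 ± 22.2 CPM in Gnb5-/- and 52.0 ± 4.30 in Gnb5+/+ cerebellum, 84.9 ± 5.17 against 66.8 ± 3.35 in hippocampus, and 71.8 ± 28.7 against 44.5 ± 0.868 in cortex. Here the genotypes did not overlap, for which no share over all genes is given. The libraries that stood apart were the highest, with 122 CPM in the cerebellum of mouse 12 and 127 CPM in the cortex of mouse 14. Without them the Gnb5-/- means were 68.4 ± 3.41 and 60.8 ± 10.3 CPM, still with no overlap.

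For Me1, the log2 fold change was 0.04 (SE 0.161) in atria, -0.11 (SE 0.0796) in ventricles, 0.57 (SE 0.147) in cerebellum, 0.35 (SE 0.0451) in hippocampus and 0.69 (SE 0.196) in cortex. It was 0.40 in cerebellum without mouse 12 and 0.45 in cortex without mouse 14. In Gnb5+/- against Gnb5+/+ mice, Me1 had -0.06 (SE 0.161) in atria and 0.17 (SE 0.0796) in ventricles.

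Gm7049 had few counts. Gnb5-/- mice had 14, 29.5 and 46 in atria, 19, 33 and 50 in ventricles, 23, 26.5 and 29 in cerebellum, 23, 43 and 47 in hippocampus, and 10, 27.5 and 31 in cortex. Gnb5+/+ mice without mouse 15 had 0 to 8, and mouse 15 had 14 in atria, 8 in ventricles, 17 in cerebellum, 19 in hippocampus and 7 in cortex. Gnb5+/- mice had 8 to 19 in atria and 9 to 14 in ventricles. In CPM, no Gnb5-/- library overlapped a Gnb5+/+ one of the same tissue.

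Gm7049 had a log2 fold change of 2.42 (SE 0.451) in atria, 2.41 (SE 0.259) in ventricles, 2.16 (SE 0.459) in cerebellum, 2.77 (SE 0.459) in hippocampus and 3.49 (SE 0.510) in cortex. Without mouse 15 these were 3.03, 2.59, 2.87, 3.73 and 4.31. They rest on Gnb5+/+ libraries with medians of 3, 4, 2, 2 and 1 counts, where 3 or fewer were treated as not told apart from 0. In CPM, the difference without mouse 15 was 0.636 (SE 0.142), 0.747 (SE 0.0713), 0.552 (SE 0.0418), 0.820 (SE 0.0787) and 0.592 (SE 0.0649) in the same order. Its share of the pair's counts was 0.795% to 1.03% on average in the Gnb5-/- groups, 0.388% and 0.303% in Gnb5+/- atria and ventricles, and 0.0636% to 0.165% in Gnb5+/+ groups without mouse 15. So small a share left the sum close to the parent: the Me1 sum had a log2 fold change of 0.05 (SE 0.161) in atria, -0.10 (SE 0.0794) in ventricles, 0.58 (SE 0.147) in cerebellum, 0.36 (SE 0.0454) in hippocampus and 0.70 (SE 0.193) in cortex. Without mouse 12 the cerebellar value of the Me1 sum was 0.41, and without mouse 14 the cortical one was 0.46.

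In the Oaz2 pair the parent had a slightly higher mean in Gnb5-/- than in Gnb5+/+ mice of every tissue, and the copy was seen mainly in mutant mice and in mouse 15. Oaz2 had 78.3 ± 3.37 CPM in Gnb5-/- and 72.6 ± 6.90 in Gnb5+/+ atria, 74.3 ± 6.20 against 68.7 ± 7.67 in ventricles, 93.5 ± 26.0 against 75.5 ± 2.96 in cerebellum, 105 ± 4.59 against 98.8 ± 2.88 in hippocampus, and 130 ± 34.1 against 101 ± 3.55 in cortex. Only in cortex did the genotypes not overlap. Without mouse 12 the Gnb5-/- cerebellar mean was 83.1 ± 5.49, and without mouse 14 the cortical mean was 117 ± 15.8.

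On the log2 scale, the fold change of Oaz2 was 0.11 (SE 0.0624) in atria, 0.11 (SE 0.0909) in ventricles, 0.31 (SE 0.139) in cerebellum, 0.09 (SE 0.0337) in hippocampus and 0.36 (SE 0.140) in cortex, with 0.14 in cerebellum without mouse 12 and 0.22 in cortex without mouse 14. In Gnb5+/- mice, Oaz2 had 0.15 (SE 0.0624) in atria and 0.10 (SE 0.0910) in ventricles.

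Oaz2-ps counts in Gnb5-/- mice were 40, 49 and 51 in atria, 33, 35 and 65 in ventricles, 39, 48.5 and 62 in cerebellum, 46, 62 and 78 in hippocampus, and 18, 54 and 78 in cortex. Gnb5+/- mice had 18, 24.5 and 29 in atria and 9, 17.5 and 22 in ventricles. The 25 Gnb5+/+ libraries without mouse 15 had 0 to 5, and mouse 15 had 22 in atria, 6 in ventricles, 24 in cerebellum, 24 in hippocampus and 29 in cortex. The genotypes overlapped in CPM in cortex alone, between mouse 15 and the Gnb5-/- library of mouse 14 (0.760 CPM in the former).

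The log2 fold change of Oaz2-ps was 3.43 (SE 0.643) in atria, 4.24 (SE 0.498) in ventricles, 3.27 (SE 0.714) in cerebellum, 3.53 (SE 0.591) in hippocampus and 3.15 (SE 0.795) in cortex, and in Gnb5+/- mice 2.55 (SE 0.655) and 3.27 (SE 0.527) in atria and ventricles. These folds, too, rest on mouse 15, which took the Gnb5+/+ mean from 0.0074 to 0.0932 CPM in atria and from 0.0279 to 0.124 CPM in cerebellum. Without it the level in Gnb5-/- mice was higher by 1.15 CPM (SE 0.0596) in atria, 1.08 (SE 0.0718) in ventricles, 1.16 (SE 0.0637) in cerebellum, 1.38 (SE 0.0660) in hippocampus and 1.24 (SE 0.154) in cortex, and with it by 1.07, 1.04, 1.06, 1.30 and 1.12. In Gnb5+/- mice without mouse 15 it was higher by 0.618 CPM (SE 0.0414) in atria and 0.537 (SE 0.0603) in ventricles. Of the pair's counts in atria, Oaz2-ps made 1.46% ± 0.177 in Gnb5-/- mice against 0.766% ± 0.0987 in Gnb5+/- mice, and in ventricles 1.46% ± 0.246 against 0.757% ± 0.190. In Gnb5-/- brains its share was 1.32% in cerebellum, 1.33% in hippocampus and 1.03% in cortex. The Oaz2 sum had log2 fold changes of 0.13 (SE 0.0629), 0.13 (SE 0.0907), 0.32 (SE 0.138), 0.11 (SE 0.0338) and 0.38 (SE 0.138) in atria, ventricles, cerebellum, hippocampus and cortex, with 0.16 in cerebellum without mouse 12 and 0.23 in cortex without mouse 14.

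**Figure D3:**
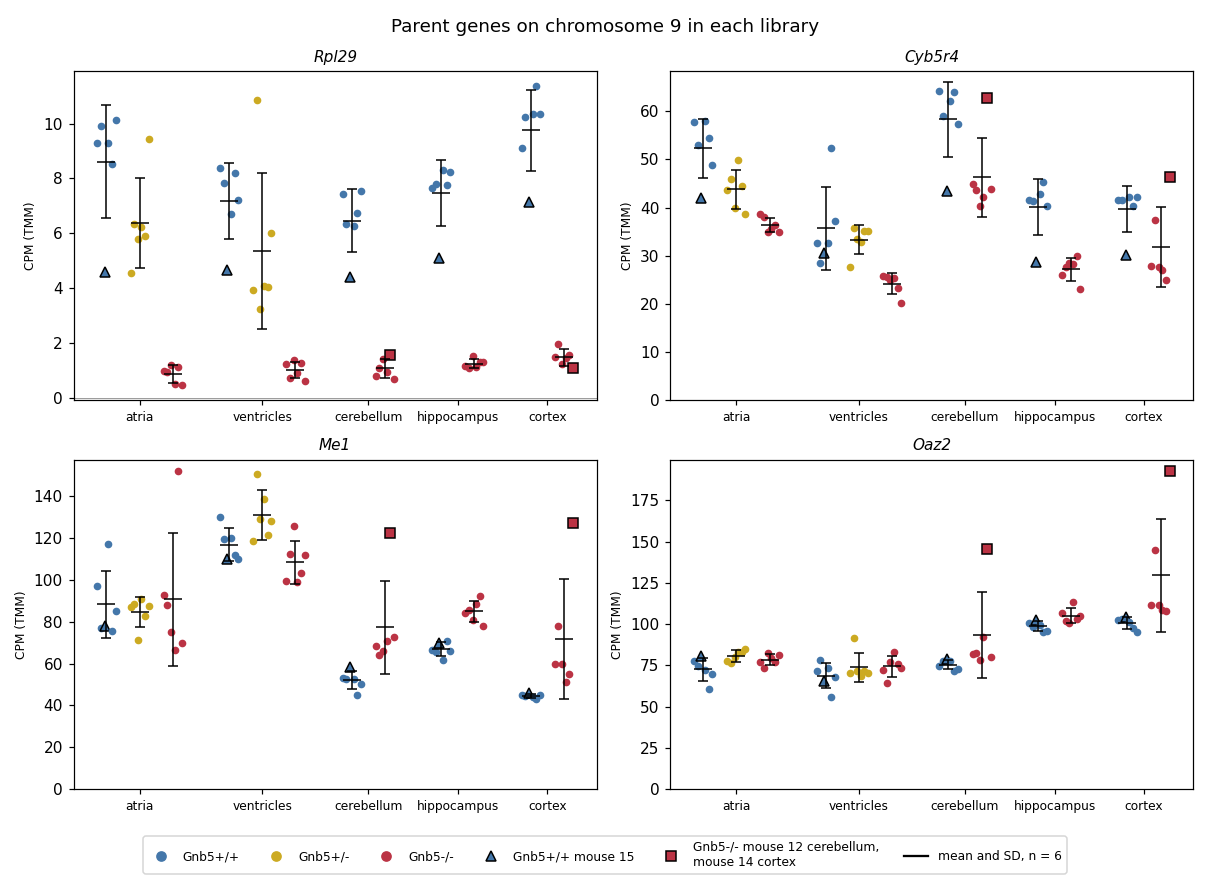
Normalised counts (CPM, TMM factors within a tissue) of the 4 parent genes in each library, with the mean and SD of 6 mice. Rpl29 was lower in all Gnb5-/- libraries than in any Gnb5+/+ library of the same tissue, while for Me1 and Oaz2 the highest brain values were those of the libraries of mouse 12 and mouse 14, drawn as squares.

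**Figure D4:**
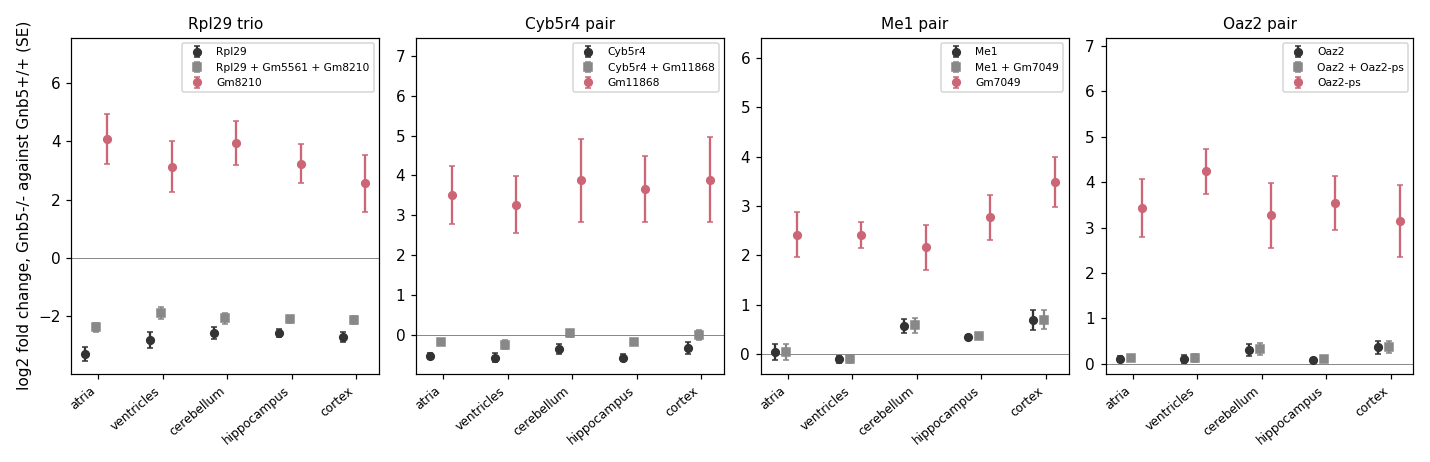
Log2 fold change, Gnb5-/- over Gnb5+/+, with its SE in the 5 tissues, for each parent, the sum of the pair or trio, and the pseudogenes. The Cyb5r4 sum lay between -0.23 and 0.05 where Cyb5r4 alone lay between -0.56 and -0.32, and the Rpl29 sum stayed at -1.88 or lower. Gm5561 is left out because its Gnb5-/- libraries held 0 to 2 counts.

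As the rule drew on these contrasts, the number of members called by edgeR's quasi-likelihood test (adjusted p below 0.05) supports nothing and is given for completeness. It was 7 of 9 members in atria, where 0.253% of the 16181 genes tested were called, 4 of 9 in ventricles (0.188% of 14866), 5 of 8 in hippocampus (0.165% of 17588), 2 of 8 in cortex (0.0557% of 17967) and 1 of 8 in cerebellum (0.0817% of 17139). Gm5561 was too low to be tested in the brain. Between Gnb5+/- and Gnb5+/+ mice it was 0 of 9 in atria by edgeR and by DESeq2, where edgeR called 0.0124%. There 7 of the 9 had an unadjusted p below 0.05 by edgeR, beside 1169 of all 16181 genes. In ventricles the number called was 1 of 9, Oaz2-ps, where 0.0202% were called.

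Mouse 15 is labelled wild type, and its libraries were unlike those of the other 5 Gnb5+/+ mice in the pseudogenes while alike in the transcriptome as a whole. Its Gnb5 level lay within or above the range of the other Gnb5+/+ mice: 26.9 CPM in atria (26.6 to 32.9), 18.7 in ventricles (16.9 to 21.02), 161 in cerebellum (137 to 152), 97.8 in hippocampus (94.0 to 106) and 129 in cortex (123 to 148). Its libraries correlated with their group at a mean r of 0.981 to 0.991. The mouse was singled out after its pseudogene counts were seen.

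Gm11868 took 10.5% of the pair's counts in the atria of mouse 15 (Wilson 95% interval 9.18 to 11.9), 11.97% in ventricles (10.1 to 14.1), 12.04% in cerebellum (10.7 to 13.6), 12.2% in hippocampus (10.6 to 13.95) and 10.2% in cortex (8.68 to 12.01). The intervals cover counting error alone. Gnb5+/- mice had a mean of 10.99% in atria (range 9.415 to 14.7) and 9.49% in ventricles (range 9.18 to 10.2). No Gnb5+/- brain was sequenced. Oaz2-ps took 0.645% (0.426 to 0.975) of the pair in its atria, 0.314% (0.144 to 0.683) in ventricles, 0.759% (0.510 to 1.13) in cerebellum, 0.514% (0.345 to 0.763) in hippocampus and 0.721% (0.503 to 1.03) in cortex. Gnb5+/- mice had a mean Oaz2-ps share of 0.766% in atria (range 0.663 to 0.890) and 0.757% in ventricles (range 0.452 to 1.02). Likeness of mouse 15 to Gnb5+/- mice was not tested, since the mouse was singled out on these counts.

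Rpl29 of mouse 15 was the lowest of the Gnb5+/+ mice in every tissue, with 4.58 CPM in atria and 5.09 in hippocampus against group means of 8.62 and 7.47. Its Cyb5r4 was also lowest in atria, cerebellum, hippocampus and cortex, for instance 30.1 CPM in cortex against a mean of 41.6 ± 0.760 in the other 5 mice. Its Gm5561 was not low throughout: 77 counts in ventricles were the most of any library. Without mouse 15 the Gnb5+/+ mean of Gm11868 was 0.0292 to 0.0686 CPM over the 5 tissues, and its log2 fold change, Gnb5-/- over Gnb5+/+, was 7.16 in atria, 6.91 in ventricles, 7.90 in cerebellum, 7.77 in hippocampus and 8.10 in cortex, against 3.27 to 3.89 with the mouse. The larger values follow from that choice and rest on Gnb5+/+ libraries of 0 to 6 counts.

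**Figure D5:**
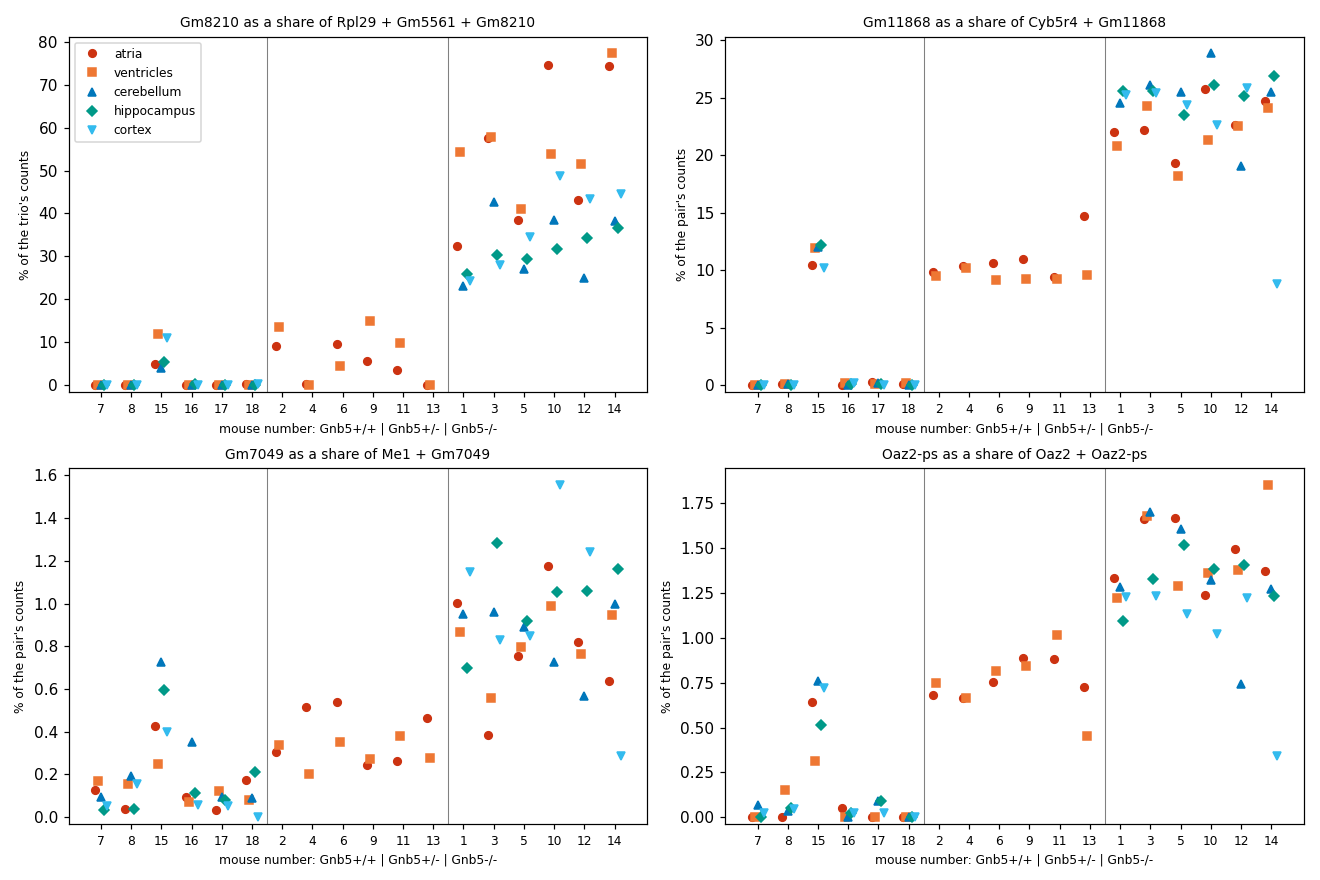
Share of the counts of the trio or pair taken by Gm8210, Gm11868, Gm7049 and Oaz2-ps, in percent, for each mouse and tissue. Gnb5+/+ mouse 15 had Gm11868 shares of 10.2% to 12.2% where the other Gnb5+/+ mice were near 0, and Gnb5+/- mice 4 and 13 had Gm8210 shares near 0.

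Among the tissues of Gnb5+/+ mice, which the choice of genes did not use, the parents had distinct levels. Per kb of exon, Rpl29 was at 10.3 ± 1.97 CPM per kb in ventricles, 8.60 ± 2.06 in atria, 6.54 ± 1.00 in cortex, 5.11 ± 0.822 in hippocampus and 4.04 ± 0.709 in cerebellum. Cyb5r4 was at 8.72 ± 0.994 in atria, 8.55 ± 2.02 in ventricles, 6.10 ± 0.804 in cerebellum, 4.58 ± 0.657 in hippocampus and 4.44 ± 0.537 in cortex. Neighbours in these orders were not all apart: atria and ventricles, and hippocampus and cortex, overlapped within their SDs for both genes.

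Me1 was at 49.2 ± 3.54 CPM per kb in Gnb5+/+ ventricles, 25.8 ± 4.56 in atria, 13.4 ± 0.613 in hippocampus, 9.51 ± 0.789 in cerebellum and 8.73 ± 0.169 in cortex. Oaz2 was at 37.2 ± 4.41 in ventricles, 27.3 ± 2.61 in atria, 25.5 ± 0.818 in hippocampus, 25.4 ± 0.942 in cortex and 17.8 ± 0.729 in cerebellum. Hippocampus and cortex did not differ beyond their spread in Oaz2, nor did atria from either. By uniquely aligned reads per length of all annotated exons, Me1 and Oaz2 ranked above the other 2 of the 4 parents in every tissue. The order rests on that length, which is 6736 bases for Cyb5r4 where its aligned transcript has 2644. Reads that fit another gene equally are not counted. Windows shared with other genes made 18.8% in Rpl29, 10.9% in Me1, 0.887% in Cyb5r4 and 0.567% in Oaz2. The effect of this on the order was not tested.

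Tested with edgeR's quasi-likelihood test over all genes, all 4 parents differed between Gnb5+/+ cerebellum and cortex, where 69.1% of all genes tested were called. Oaz2 was lower in cerebellum, at -0.44 on the log2 scale (SE 0.0668, adjusted p = 6.89e-07), and so was Rpl29, at -0.62 (SE 0.163, adjusted p = 0.00118). Cyb5r4 was higher, at 0.53 (SE 0.121, adjusted p = 0.000269). Me1 was higher by 0.20 (SE 0.0748, adjusted p = 0.0209), a call that was lost with other scaling factors (0.13, adjusted p = 0.145).

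Between Gnb5+/+ atria and ventricles, 2 of the 4 parents were called, where 51.6% of all genes were: Me1 was lower in atria by -0.89 (SE 0.0747, adjusted p = 1.31e-11, edgeR) and Oaz2 by -0.40 (SE 0.0671, adjusted p = 7.49e-06). Cyb5r4 had 0.08 (SE 0.121, adjusted p = 0.613) and Rpl29 -0.22 (SE 0.165, adjusted p = 0.284). With the mouse as a block Rpl29 passed, at -0.23 (adjusted p = 0.0222).

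Between Gnb5+/+ hippocampus and cortex, 1 of the 4 was called, where 33.5% of all genes were. Me1 was higher in hippocampus, at 0.63 (SE 0.0749, adjusted p = 4.54e-08, edgeR), while Cyb5r4 had 0.06 and Oaz2 0.02 (adjusted p = 0.765 and 0.881). Rpl29 had -0.34 (SE 0.163, adjusted p = 0.108), which passed with the mouse as a block (-0.34, adjusted p = 0.00123) and without mouse 15 (-0.33, adjusted p = 0.00319).

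Gnb5+/+ atria and cortex differed at 3 of the 4 parents, where 87.0% of all genes tested did. Me1 was higher in atria by 1.57 (SE 0.0762, adjusted p = 1.05e-18, edgeR) and Cyb5r4 by 0.99 (SE 0.122, adjusted p = 8.32e-09). Rpl29 was higher by 0.41 (SE 0.163, adjusted p = 0.0216), which was lost with other scaling factors (adjusted p = 0.0749), with DESeq2 (0.0663) and without the filter (0.0533). Oaz2 had 0.12 (adjusted p = 0.103). The median over all genes in this contrast was -0.15 on the log2 scale, and -0.24 with the other factors, so Oaz2 lay above the median in both.

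Gm5561 passed the filter in Gnb5+/+ libraries through the heart, where it is high, so its tissues are described without a test. It made 15.5% ± 0.826 of the trio's counts in Gnb5+/+ atria and 17.6% ± 8.52 in ventricles, and 5.24% ± 3.06 in cerebellum, 4.89% ± 1.91 in hippocampus and 4.15% ± 2.25 in cortex. Mouse 15 was highest in ventricles, at 31.8% (Wilson interval 26.3 to 37.9), and without it the ventricular mean was 14.7% ± 5.44. The highest share in the brain was 10.8%, in a cerebellum. All 6 atrial libraries lay above it, and so did the ventricular ones except that of mouse 8, at 7.76%.

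Since the copies other than Gm5561 did not pass the filter in Gnb5+/+ mice, tissues were also compared within the 30 Gnb5-/- libraries, a comparison added after the data were seen, in which 8 members were tested. The members were chosen on values that include these libraries, and the copies passed this filter only where they are high. Calls and p-values of the 8 members in this comparison are therefore descriptions and support nothing. Between Gnb5-/- atria and ventricles 6 of 8 were called, where 41.7% of all genes were. In atria, Me1 was lower by -0.80 (SE 0.188, adjusted p = 0.000922, edgeR), Gm7049 by -0.84 (SE 0.248, adjusted p = 0.00675), Oaz2 by -0.46 (SE 0.126, adjusted p = 0.00370), Oaz2-ps by -0.46 (SE 0.181, adjusted p = 0.0415), Rpl29 by -0.76 (SE 0.247, adjusted p = 0.0135) and Gm8210 by -0.89 (SE 0.287, adjusted p = 0.0130). Neither Cyb5r4 (0.05, adjusted p = 0.773) nor Gm11868 (0.13, adjusted p = 0.536) passed. In each pair, parent and copy had the same sign.

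Between Gnb5-/- atria and cortex, 6 of 8 were called, where 79.8% of all genes were. Cyb5r4 was higher in atria by 0.81 (SE 0.113, adjusted p = 1.83e-07, edgeR) and Gm11868 by 0.90 (SE 0.154, adjusted p = 5.08e-06), Me1 by 0.96 (SE 0.188, adjusted p = 3.70e-05) and Gm7049 by 0.81 (SE 0.251, adjusted p = 0.00451). Gm8210 was higher by 0.85 (SE 0.290, adjusted p = 0.00917) while Rpl29 had -0.16 (SE 0.243, adjusted p = 0.553). Oaz2-ps was higher by 0.46 (SE 0.179, adjusted p = 0.0206) and Oaz2 had -0.11 (SE 0.126, adjusted p = 0.421). Without the 2 libraries that stood apart, Oaz2-ps missed the threshold (0.32, adjusted p = 0.0532) and Oaz2 had 0.00076.

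Between Gnb5-/- cerebellum and cortex, 4 of 8 were called, where 55.5% of all genes were. Cyb5r4 (0.47, SE 0.112, adjusted p = 0.000773, edgeR) and Gm11868 (0.71, SE 0.153, adjusted p = 0.000249) were higher in cerebellum, and Oaz2 (-0.54, SE 0.126, adjusted p = 0.000523) and Gm8210 (-0.83, SE 0.297, adjusted p = 0.0182) were lower. Rpl29 had -0.53 (SE 0.241, adjusted p = 0.0623), and -0.74 (adjusted p = 0.00923) without the 2 libraries that stood apart. With the mouse as a block it passed, at -0.56 (adjusted p = 0.0199), which makes 5 of 8. In hippocampus against cortex 0 of 8 were called by edgeR or DESeq2, where edgeR called 26.0% of all genes. Of the 8, 1 (Gm7049, 0.54) had an unadjusted p below 0.05 by edgeR, 0.0358, as did 7451 of all 19425 genes. Me1 there had 0.31 (adjusted p = 0.223), and 0.51 (adjusted p = 0.00560) without those libraries.

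The wider pathways of the 4 parents were read from lists of relatives. In the 7 genotype comparisons, 0 listed genes were called by edgeR's test, with 18 of 234 gene tests at an unadjusted p below 0.05, and 1 was called by DESeq2: Sms, spermine synthase, in Gnb5-/- ventricles (-0.37, adjusted p = 0.0173, against 0.130 by edgeR). Over all genes, the share with an unadjusted p below 0.05 by edgeR ran from 711 of 14866 in Gnb5-/- ventricles to 1318 of 16181 in Gnb5-/- atria. The share called ran from 0.0124% to 0.253%. Of 12 polyamine genes 11 were tested, of 8 genes of malic enzymes and NADPH supply all 8, of 8 cytochrome b5 genes 7 or 8, and of 7 ribosomal protein genes all 7. The median log2 fold change of the ribosomal list was 0.45 in Gnb5-/- cerebellum and 0.63 in cortex, the tissues with the libraries that stood apart, and -0.03, 0.08 and -0.02 in atria, ventricles and hippocampus, where the median of all genes was 0.0059 or less in size. Without mouse 12 the ribosomal median was 0.059 in cerebellum, and without mouse 14 it was 0.077 in cortex. Rpl29 was at -2.56 or lower in the same comparisons. For the polyamine list the medians were 0.04, -0.02, 0.21, 0.03 and 0.17 in atria, ventricles, cerebellum, hippocampus and cortex, and 0.018 and 0.090 in cerebellum and cortex without those libraries.

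Between tissues of Gnb5+/+ mice the relatives differed widely, and the genes named as examples were picked after their values were seen. Of the 11 polyamine genes, 4 were higher and 4 lower in atria than in cortex, among them Odc1, the target of the antizymes, higher by 1.02 (SE 0.107, adjusted p = 3.14e-10, edgeR), Oaz1, the most widely expressed antizyme, higher by 0.70 (SE 0.109, adjusted p = 7.16e-07), and Azin2, an antizyme inhibitor, lower by -4.06 (SE 0.138, adjusted p = 6.89e-23). Oaz2 had 0.12 there. Of the 8 NADPH genes, 4 were higher and 3 lower: Mdh1, cytosolic malate dehydrogenase, was higher by 1.55 (adjusted p = 2.19e-19), near the 1.57 of Me1, and Fasn, fatty acid synthase, a consumer of NADPH, was lower by -1.75 (adjusted p = 4.98e-16).

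Of the 8 cytochrome b5 genes, 4 were higher and 3 lower in Gnb5+/+ atria than in cortex. Cyb5r3, the main membrane-bound cytochrome b5 reductase, was higher by 2.00 (SE 0.0862, adjusted p = 4.58e-20, edgeR), and Scd2, a fatty acid desaturase that takes electrons from cytochrome b5, lower by -3.30 (SE 0.104, adjusted p = 9.49e-24). Of the ribosomal genes, 4 were higher and 1 lower in atria, and 6 of 7 were lower in cerebellum than in cortex, such as Rpl31 at -0.74 (SE 0.0953, adjusted p = 3.59e-08) beside -0.62 for Rpl29.

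Other processed pseudogenes of the parents were sought by sequence. At 90% identity or more, Rpl29 had 61 besides Gm5561 and Gm8210, of which 18 had no count in any library and 7 reached 10 counts in one. Their summed counts were 23, 37 and 57 in Gnb5-/- and 19, 32 and 52 in Gnb5+/+ atria, and 14, 28 and 39 against 6, 23 and 35 in ventricles, so the groups overlapped. The most abundant 3 were Gm12193, with medians of 19.5 and 18.5 counts in Gnb5-/- and Gnb5+/+ atria, Gm12447, with 15 and 12 in hippocampus, and Gm47399, with 18 and 15 in ventricles. Me1 and Oaz2 had 1 more each, with at most 9 and 1 counts, and Cyb5r4 had none.

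Among all processed pseudogenes that passed the filter and matched a protein-coding gene at this identity, those with a parent on chromosome 9 were called in 5 of 19 cases (26.3%) in Gnb5-/- against Gnb5+/+ atria, 3 of 17 (17.6%) in ventricles, 0 of 17 in cerebellum, 2 of 18 (11.1%) in hippocampus and 1 of 17 (5.88%) in cortex. Each of those called was one of the 5 listed copies, which the rule had chosen for it. With a parent elsewhere, 0 of 180, 157, 191, 179 and 187 were called by edgeR in the same order, where 7, 17, 5, 5 and 21 had an unadjusted p below 0.05, and DESeq2 called 1 in atria and 1 in ventricles. Over all genes tested, edgeR gave an unadjusted p below 0.05 to 1318 of 16181, 711 of 14866, 1003 of 17139, 1355 of 17588 and 1327 of 17967. It called 0.0557% to 0.253% of all genes in these comparisons.

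For each member, the genes most like it were found by Pearson's r of log2 CPM over the 72 libraries, centred on each tissue. They were sought among the 13506 genes tested in all 5 tissues, with Gm5561 added, which was too low to be tested in the brain. These values share libraries, normalisation and the genotype that chose the members, and are descriptions. Rpl29 was most like Gnb5 (r = 0.952) and Gm5561 (0.915), and Gm5561 most like Gnb5 (0.934). Gm11868 was most like Oaz2-ps (0.970), Gm7049 (0.902) and Prss45 (0.872), a gene of chromosome 9, and Gm8210 was most like Oaz2-ps (0.858). Me1 was most like Ptpmt1 (0.750) and Oaz2 most like Abhd11 (0.879).

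With each library centred on its own group, which takes out the differences between group means, Gm11868 and Oaz2-ps had an r of 0.879. Gm11868 and Gm8210 had 0.638, each over the 72 libraries of the 18 mice. Gm8210 and Rpl29 had -0.615, and Cyb5r4 and Oaz2-ps -0.585, while Me1 and Gm7049 had 0.114. Mouse 15 adds 5 libraries in which the copies deviate together. It also moves the Gnb5+/+ means, so the other 25 Gnb5+/+ libraries shift together the other way. No r without this mouse is given. For Cyb5r4 the genes most like it under this centring were Ryk (0.773), Pcnp (0.752) and Gtf2e2 (0.751).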

How the data were processed

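RNA was sequenced from 72 tissue samples of 18 mice (TruSeq Stranded Total RNA, single-end). Per the labels and the methods, the authors trimmed reads with cutadapt 1.8, aligned them to GRCm38 with STAR 2.5.3a and counted uniquely aligned reads per Ensembl 92 gene with HTSeq 0.9.1. The deposited values are raw counts per gene and library; rows that name no gene (no feature, ambiguous, not unique) were left out. Reads without a unique alignment numbered 8816382 to 32603814 per library. Of 53715 gene IDs, 53620 were matched to GENCODE M21 (same assembly). Gene counts were 29204390 to 48807435 per library. A floor was set at 3 counts, and counts at or below it were treated as not told apart from 0.

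Samples were grouped by the labels' genotype and tissue. Genes passing filterByExpr (minimum count 10) were fitted with edgeR 4.0.16 (quasi-likelihood, TMM factors, Benjamini-Hochberg over all genes) in R 4.3.3, by genotype within a tissue or by tissue within a genotype. CPM used TMM factors within a tissue, and values per kb factors over all 72 libraries. Pairs were also summed before fitting. In a simulation of Gnb5-/- against Gnb5+/+ atria over 16181 genes, edgeR found 158 of 200 changed genes, with 9 false among 167 called. Alternatives were DESeq2 1.42.0, RLE factors, no filter, a replicate block, 2 genotypes only, and leaving out libraries. Processed pseudogenes were matched to protein-coding transcripts with BLAST+ 2.17.0 (identity of at least 90% over 50%). Replicate numbers join different mice between genotypes (correlations of deviations -0.242 to 0.138), but the same mouse between tissues (in 59 of 60 Gnb5+/+ pairs of libraries over 0.1, and in 51 of 60 Gnb5-/- pairs).

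Named genes were the 9 members, Gnb5, the 3 genes most like each member, listed relatives called by genotype (by edgeR 0, by DESeq2 1), and the 3 most abundant other pseudogenes. Relatives named for tissue differences, and Gm13841, were chosen after their values were seen. One of the genes this rule names is not reported here. The members and lists were chosen with earlier results of these data known. Leaving out mouse 15 or the libraries that stood apart, and the comparison of Gnb5-/- tissues, were added after the data were seen.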

Additional observations from a re-analysis of the deposited data

Results flagged for a closer look

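Libraries far from the other 5 of their group by Dixon's test are given as values in CPM. Chance flags about 1 in 20 groups.

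Gnb5+/+ mouse 15 stood out in atria with Rpl29 at 4.58, its sum at 5.79, Gm8210 at 0.285, Gm11868 at 4.89 and Oaz2-ps at 0.522. In its ventricles Gm8210 was at 0.995 and Gm11868 at 4.15. In its cerebellum Gm8210 was at 0.201, Cyb5r4 at 43.5, Gm11868 at 5.96, Gm7049 at 0.428 and Oaz2-ps at 0.604. In its hippocampus Rpl29 was at 5.09, its sum at 5.69, Gm8210 at 0.310, Cyb5r4 at 28.7, Gm11868 at 3.98, Gm7049 at 0.420 and Oaz2-ps at 0.531. In its cortex Gm8210 was at 0.917, Cyb5r4 at 30.1, its sum at 33.6, Gm11868 at 3.43 and Oaz2-ps at 0.760.

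Gnb5-/- mouse 12 stood out in cerebellum with Cyb5r4 at 62.7, Me1 at 122, Oaz2 at 146 and the sums of their pairs at 77.4, 123.0 and 147. In its atria Me1 was at 152 and the Me1 sum at 153. Gnb5-/- mouse 14 had Me1 at 127 and its sum at 128 in cortex. Gm5561 was at 0.0233 in the cortex of Gnb5-/- mouse 5 and at 0.0210 in the hippocampus of Gnb5-/- mouse 12, each of them 1 count.

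Gnb5+/- mouse 13 had Rpl29 at 9.45 and its sum at 10.3 in atria. Gnb5+/- mouse 4 had Rpl29 at 10.9, Oaz2 at 91.5 and the Oaz2 sum at 92.1 in ventricles, where its adipocyte markers summed to 823. Gnb5+/- mouse 2 had Cyb5r4 at 27.6 in ventricles, and Gnb5+/+ mouse 17 had Cyb5r4 at 52.4 and its sum at 52.5 there.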

How the results depend on the processing

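Counts of all genes called between genotypes depended on the method. With DESeq2 they were 110 against 41 by edgeR in Gnb5-/- atria, 63 against 28 in ventricles, 49 against 14 in cerebellum, 104 against 29 in hippocampus, 25 against 10 in cortex and 7 against 2 in Gnb5+/- atria. With 2 genotypes only, they were 20 in Gnb5-/- atria and 1, against 3, in Gnb5+/- ventricles. Without mouse 15, chosen after its pseudogene counts were seen, they were 62 in Gnb5-/- atria, 30 in cerebellum, 20 in cortex, 6 in Gnb5+/- atria, where Gm11868 and Oaz2-ps then passed, and 5 in Gnb5+/- ventricles. Without mouse 12 the cerebellum gave 62, and without mouse 14 the cortex 22. With the replicate number as a block, which joins different mice, the counts were 5 in cerebellum, 19 in hippocampus, 6 in cortex and 0 in Gnb5+/- ventricles (edgeR, 599 genes at an unadjusted p below 0.05). Between tissues, where the block is the mouse, the pairing turned 3 calls, all of Rpl29: Gnb5+/+ atria against ventricles, Gnb5+/+ hippocampus against cortex, and Gnb5-/- cerebellum against cortex (-0.56, adjusted p = 0.0199, edgeR).

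Some values changed sign. Without the libraries of mouse 12 and mouse 14, Gm11868 in Gnb5-/- hippocampus against cortex was -0.0093, and in Gnb5-/- atria against cortex Oaz2 was 0.00076 and the Oaz2 sum 0.0050. The Cyb5r4 sum, Gnb5-/- against Gnb5+/+, was -0.0010 in cerebellum and -0.038 in cortex without mouse 15, -0.026 without mouse 12 and -0.064 without mouse 14. Cyb5r4 alone, in place of its sum, was -0.33 in cerebellum, -0.32 in cortex and -0.097 in Gnb5+/- ventricles, and Rpl29 alone was -0.16 in Gnb5-/- atria against cortex. Without the filter, Oaz2-ps lost its Gnb5-/- tissue calls (adjusted p = 0.126 and 0.0674, edgeR). At 95% identity Rpl29 had 27 other pseudogenes. Reads that align equally to parent and copy are in no count.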
